A study of Mus musculus with 2 samples.

Results

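Fibroblast growth factor (FGF) signalling was followed through 10 of the 31053 counted features, which were taken by gene symbol. They are the ligands Fgf7, Fgf10 and Fgf18, the receptors Fgfr1, Fgfr2 and Fgfr3, and the feedback and target genes Dusp6, Spry1, Spry2 and Etv5. The study profiled dissociated mouse back skin by 10x Genomics single-cell RNA-seq at postnatal day 53, to see what raised miR-205 does to skin cells. There was 1 control library and 1 miR-205-induced library, so each comparison sets 1 library against 1, no spread between mice was measured, and no test of the treatment was possible. Intervals in brackets are 95% intervals that cover counting error only.

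The induced group carried a pTRE2-miR-205 transgene switched on through Krt14-rtTA, a driver active in Krt14-expressing keratinocytes, and received doxycycline chow for 4 days from postnatal day 49. Both groups carried a K14-H2BGFP reporter allele, were matched for gender and were labelled C57BL/6, while the transgene was made in FVB mice. The protocol text has both groups on doxycycline, whereas the treatment label of the control reads untreated. The study states that a control and an inducible sample were processed as a pair, together on a single chip, and that its controls were littermates. The transgene genotype of the control and the number of animals behind each library were not given in the sources used here. Cells were sorted so that epidermal, follicle and dermal cells entered at 3:5:2, so numbers of cells per population were not compared.

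FGF ligands are secreted proteins that bind receptor tyrosine kinases together with heparan sulfate and switch on the RAS-ERK cascade inside the receiving cell. Sprouty proteins and the ERK phosphatase Dusp6 are made in response and dampen the same cascade, and Etv5 is a transcription factor commonly used as a readout of it. In hair follicles, Fgf7 and Fgf10 are known as ligands of the dermal papilla, the mesenchymal cluster at the follicle base, and Fgf18 is known as a ligand of the resting bulge that holds the follicle in its resting phase.

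The sequence that defines the induction is shown first, because it bears on whether a member holds a match to it. Mature miR-205 (RefSeq, GRCm38.p6, chr1:193507503-193507524, minus strand) has its seed, bases 2 to 8, in capitals, and the second line has the complement of the seed in capitals within a stretch of the annotated 3′ UTR of Fgf7-001 (plus strand, NCBIM37, match at chr2:125916771-125916777, from base 1474 of a 1624-base UTR).
mmu-miR-205-5p: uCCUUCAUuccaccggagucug
Fgf7 site: gaataagtacttATGAAGGgaagggca
On the transcript strand, the 7-base match ATGAAGG was found in 1 of the 10 members, searching the longest 3′ UTR annotated for each, beside 2069 of 20007 genes (10.3%) with an annotated UTR. The other 9 UTRs, from 335 bases in Fgf18 to 2820 bases in Fgfr2, did not hold this 7-base string. The median UTR over all these genes was 891 bases, shorter than most UTRs of the members, and length was not matched. Fgf7 was counted almost only in dermal cells (values below).

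The control library held 4545 barcodes and 55465594 unique molecular identifiers (UMIs) against 4264 barcodes and 49733560 UMIs in the induced library. The filter kept 3936 and 3628 cells, with medians of 12198.5 and 11752.5 UMIs per cell. In all, 11 barcode sequences occurred in both libraries, of which 5 were kept in both. Clustering without any FGF list gene among the variable genes gave 22 clusters, and 16 of them met the marker rule for a name. Clusters 4 and 14, which raised 5 of 6 markers each, were like hair follicle stem cells (HF-SC-like), and cluster 13 was cycling-like. Cluster 9 was dermal papilla-like, with Vcan, Rspo3, Sox2 and Hhip raised, whereas Corin (9 and 7 UMIs) and Alpl (13 and 6 UMIs) were too low to count. Cluster 11 was fibroblast-like, with 7 fibroblast markers raised, but it also raised all 4 Schwann markers, 4 smooth muscle markers, 2 hair germ markers and 2 dermal papilla markers. Clusters 9 and 14 each raised 3 hair germ markers as well, and cluster 9 raised 2 fibroblast markers.

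Clusters 3 and 7 stayed unnamed. Cluster 3 raised 4 HF-SC markers and the inner bulge markers Krt75 and Krt6a, and its leading genes were Nell1, Smoc1, Fgf18 and Krt75. Its Krt14 level was 363 UMIs per 1000000 UMIs of the cluster (CPM) in the control and 229 CPM in the induced library, below the levels of 1028 CPM and 419 CPM read in dermal papilla-like cells. Cluster 7 raised 4 of 5 hair germ markers and had the smooth muscle genes Tagln and Acta2 among its leading genes. In it, 7 of 210 induced cells held all 444 Acta2 UMIs.

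**Figure D1:**
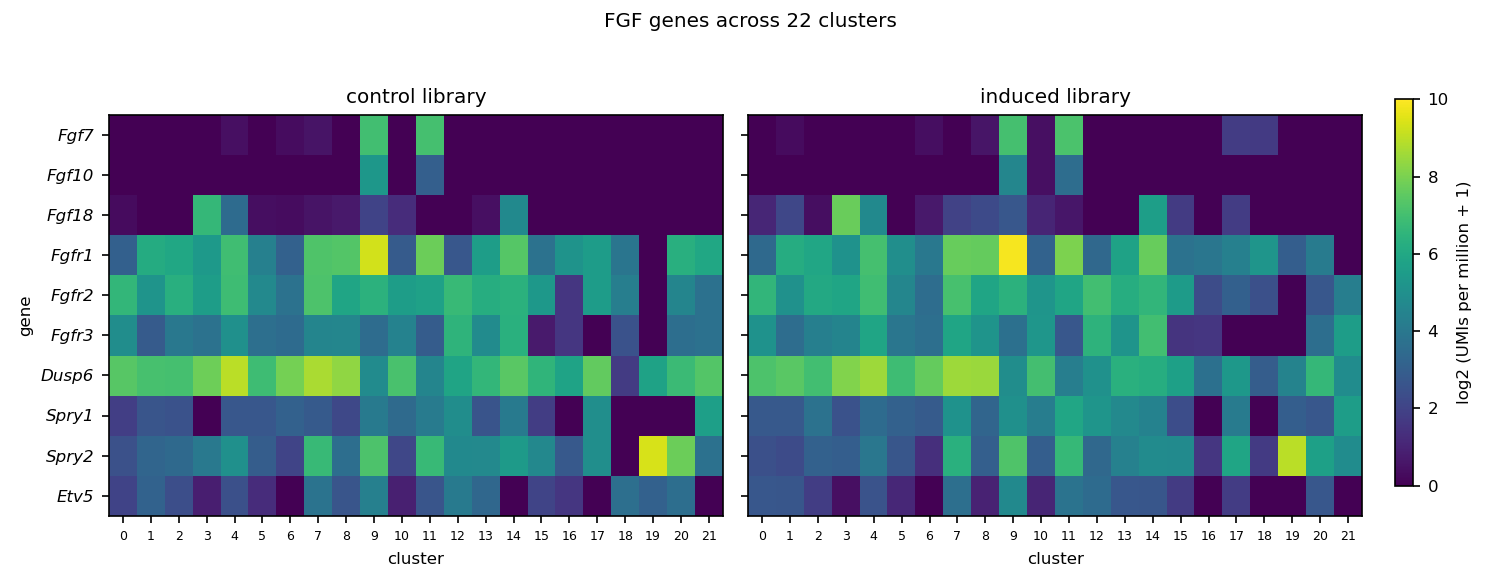
Level of the 10 FGF genes (rows) in 22 clusters (columns) of the control library (left) and the induced library (right), as log2 of CPM plus 1 on the colour scale. Fgf7 and Fgf10 stand out in clusters 9 and 11, Fgf18 in clusters 3, 14 and 4, and Spry2 in cluster 19.

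Fgf7 and Fgf10 were counted in dermal cells. Fgf7, known to act on epithelium through the epithelial splice form of Fgfr2, had 82 UMIs in control and 164 UMIs in induced dermal papilla-like cells, which were 124 CPM (98.5 to 154) and 132 CPM (112 to 153). In fibroblast-like cells it had 200 and 281 UMIs, or 131 CPM (114 to 151) and 144 CPM (128 to 162). Intervals of both libraries and both dermal clusters overlapped, so neither their order nor a difference between libraries was detectable at this depth. The log2 ratio of induced over control was 0.08 (−0.30 to 0.49) in cluster 9 and 0.13 (−0.13 to 0.40) in cluster 11. These 2 clusters held 28.8% and 70.2% of the control UMIs of Fgf7 and 36.4% and 62.3% of its induced UMIs, and no other cluster had more than 1 UMI in a library.

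The share of cells with a Fgf7 UMI gave the same picture. After thinning each cell to 5000 UMIs, 17 of 50 control cells (34.0%, 21.2 to 48.8) and 50 of 139 induced cells (36.0%, 28.0 to 44.5) of cluster 9 held a Fgf7 UMI, with 91 and 83 shallower cells left out. Before thinning the shares were 29.1% and 38.3%, at median depths of 4493 and 5486.5 UMIs per cell. In fibroblast-like cells the thinned shares were 42.1% and 36.4% (unthinned 51.1% and 44.9%), with 23 and 31 cells left out. Interfollicular epidermis basal-like cluster 0, a keratinocyte population that should lack Fgf7, had 0 of 559 thinned control cells and 0 of 351 induced cells with a UMI, which allows shares of up to 0.537% and 0.855%. Its median depths were 16586 and 17375 UMIs, deeper than either dermal cluster.

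Fgf10, the other mesenchymal ligand, was sparse. It had 25 UMIs in control and 29 UMIs in induced dermal papilla-like cells, or 37.8 CPM (24.4 to 55.7) and 23.3 CPM (15.6 to 33.4). In fibroblast-like cells it had 11 and 21 UMIs, or 7.23 CPM (3.61 to 12.9) and 10.8 CPM (6.67 to 16.5). Within each library the level was higher in cluster 9 than in cluster 11, with intervals that did not overlap in the control and just overlapped in the induced library. The log2 ratios of −0.70 (−1.52 to 0.13) and 0.55 (−0.54 to 1.77) both included 0. The thinned shares of cluster 9 cells with a Fgf10 UMI were 10.0% and 10.1% (unthinned 12.1% and 10.8%). Cells holding UMIs of both ligands were few in cluster 9, with 7 of 141 control cells and 14 of 222 induced cells, against 10 in each library with Fgf10 alone.

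Among the 3 member ligands, Fgf18 was the one of the follicle epithelium. It was higher in the induced library in each of the 3 clusters where it could be compared. In cluster 3, 127 control UMIs and 604 induced UMIs gave 99.3 CPM (82.8 to 118) and 207 CPM (190 to 224), a log2 ratio of 1.05 (0.78 to 1.34). In stem cell-like cluster 4, 30 and 64 UMIs gave 10.4 CPM (7.00 to 14.8) and 26.0 CPM (20.02 to 33.2), a log2 ratio of 1.31 (0.68 to 2.00). In the other stem cell-like cluster, 14, 17 and 53 UMIs gave 25.6 CPM (14.9 to 41.0) and 47.3 CPM (35.5 to 61.9), a log2 ratio of 0.86 (0.08 to 1.77). All 3 ratios exceeded counting error and were past 1.5-fold, the size that counts as called here. The order of the levels, cluster 3 over 14 over 4, was the same in both libraries, and neighbouring intervals did not overlap in either.

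Cluster 3 held 67.6% of all Fgf18 UMIs in the control and 77.5% in the induced library. Both more cells with a UMI and more UMIs per positive cell lay behind its difference. Of 169 control cells 63 held a Fgf18 UMI (37.3%), with a mean of 2.02 UMIs per positive cell, and of 379 induced cells 219 did (57.8%), with a mean of 2.76. At 5 or more UMIs there were 4 control cells (2.37%) and 37 induced cells (9.76%). After thinning, the shares were 30.5% (23.2 to 38.5) and 48.0% (42.6 to 53.4), with 18 and 37 cells left out. Median depths of the cluster were close, at 7851 and 7609 UMIs. Antigen-presenting-like cluster 16, which should lack Fgf18, had 0 of 49 and 0 of 45 thinned cells with a UMI, which allows up to 6.12% and 6.67%, at medians of 8951.5 and 9592.5 UMIs.

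**Figure D2:**
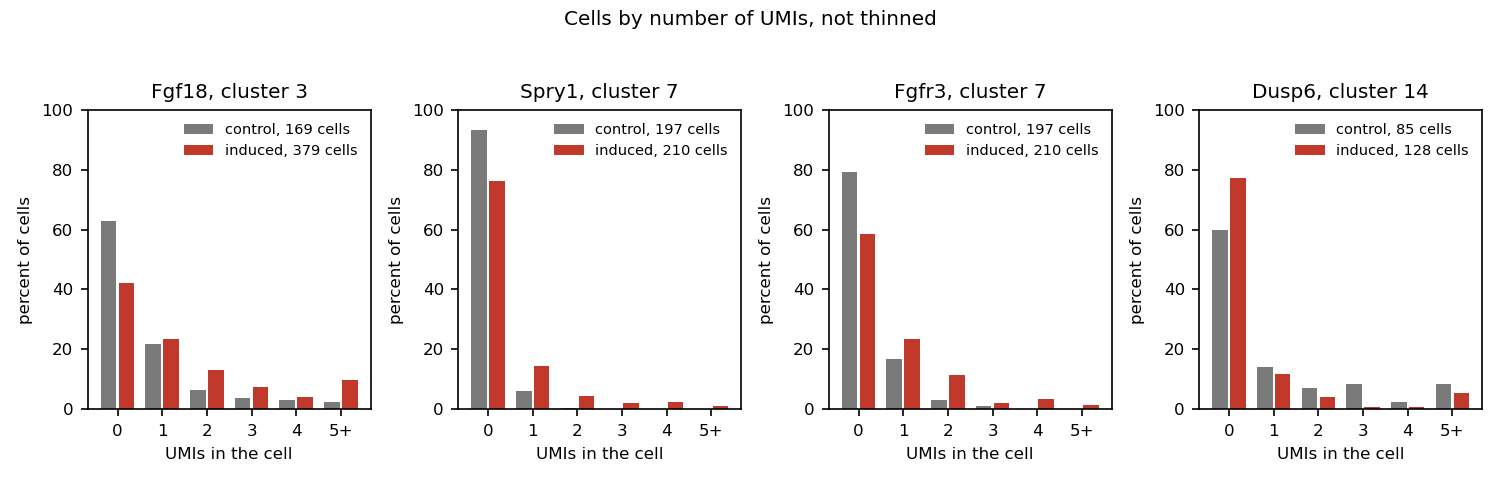
Percent of cells (y axis) by the number of UMIs of the gene in the cell (x axis, 5+ is 5 or more) in the control library (grey) and the induced library (red), without thinning. Fgf18 in cluster 3, Spry1 and Fgfr3 in cluster 7 have fewer induced than control cells at 0 UMIs, and Dusp6 in cluster 14 has more.

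In cluster 4 the thinned shares of cells with a Fgf18 UMI were 3.77% (1.82 to 6.83) and 9.82% (6.26 to 14.5), and the unthinned ones 7.94% and 17.7%. Outside clusters 3, 4 and 14, Fgf18 did not reach the 20 UMIs over both libraries set for a ratio. The highest count there was 15 induced UMIs in unnamed cluster 1, where 2 of 321 cells held them all, beside 0 UMIs in 483 control cells. Cells of cluster 3 had a median of 7.25% mitochondrial UMIs in the control and 6.52% in the induced library, and only 12 and 31 of them were under 5%. With only cells under 5% clustered anew, the Fgf18 log2 ratio was 2.22 in cluster 3, from 38 UMIs, and 2.50 in cluster 4. Of 20 genes known to respond to tissue dissociation, 6 were past 1.5-fold higher in cluster 3, 4 in cluster 4 and 1 in cluster 14. The shares of all genes were 11.0%, 10.5% and 12.8%. List medians of the dissociation genes were 0.39, 0.34 and −0.24, and their part in the Fgf18 difference was not tested.

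Among the receptors, Fgfr1 was highest in dermal papilla-like cells. It had 424 control UMIs and 1172 induced UMIs there, or 640 CPM (581 to 704) and 940 CPM (887 to 996). The log2 ratio was 0.55 (0.39 to 0.72), above counting error and just under 1.5-fold. The median of all genes tested in cluster 9 was −0.06. Thinned shares of cells with a Fgfr1 UMI were 86.0% (73.3 to 94.2) and 97.1% (92.8 to 99.2), beside 87.2% and 95.9% unthinned, and the median UMI number per cell was 2 in control and 5 in induced cells.

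Next in order for Fgfr1 came fibroblast-like cells, at 216 CPM (193 to 240) and 261 CPM (239 to 285), with a log2 ratio of 0.28 (0.07 to 0.48). Below them, cluster 7 had 150 CPM (135 to 167) and 204 CPM (188 to 222), with a log2 ratio of 0.44 (0.25 to 0.64). Cluster 14 had 163 CPM (133 to 196) and 203 CPM (177 to 231), and unnamed cluster 8 had 158 CPM and 197 CPM. Clusters 7, 8 and 14 could not be ordered, since their intervals overlapped in both libraries. Of the 18 clusters with a ratio, 14 were above 0, and in 6 the interval lay above 0, in none below. Suprabasal-like cluster 6, at 7.65 CPM and 14.9 CPM, had the largest ratio whose interval excluded 0, 0.95 (0.27 to 1.68), with 5 cells holding 46.9% of its induced UMIs.

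Fgfr2, the receptor of the dermal ligands in keratinocytes, was broad and was past 1.5-fold in no cluster. These 3′ counts do not separate its splice forms. The highest levels were 145 CPM (130 to 161) and 135 CPM (122 to 150) in cluster 7, 118 CPM (106 to 131) and 122 CPM (109 to 137) in cluster 4, and 107 CPM (91.4 to 124) and 125 CPM (107 to 145) in basal-like cluster 12. Their intervals overlapped in the induced library. The log2 ratios were −0.10 (−0.32 to 0.12) in cluster 7, 0.05 (−0.18 to 0.28) in cluster 4 and 0.20 (−0.28 to 0.70) in cluster 14. Of 16 clusters with a ratio, 8 were above and 8 below 0. The interval lay below 0 in cluster 2, at −0.29 (−0.52 to −0.05), and in cluster 10, at −0.37 (−0.74 to −0.01).

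Fgfr3, a receptor known to bind Fgf18, was the receptor with the most clusters past 1.5-fold. The ratio was above 0 in 13 of 15 clusters and past 1.5-fold in 7, all higher. In those 15 clusters, between 7.28% and 15.2% of all genes tested were past 1.5-fold higher. In cluster 7, 51 control UMIs and 154 induced UMIs gave 22.6 CPM (16.8 to 29.7) and 57.1 CPM (48.4 to 66.9), a log2 ratio of 1.33 (0.87 to 1.83). In cluster 4, 92 and 142 UMIs gave 31.8 CPM (25.6 to 39.0) and 57.7 CPM (48.6 to 68.0), a log2 ratio of 0.86 (0.47 to 1.25). These 2 clusters were alike in the induced library and overlapped in the control.

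The level of Fgfr3 was highest in cluster 14, at 81.3 CPM (61.1 to 106) and 124 CPM (104 to 147), and in basal-like cluster 12, at 90.0 CPM (75.9 to 106) and 88.1 CPM (73.1 to 105). Those 2 clusters overlapped in the control and just overlapped in the induced library. Cluster 14 had a log2 ratio of 0.60 (0.15 to 1.09), which fell under 1.5-fold with a median-of-ratios size factor (0.54) and as a mean over cells (0.58), and cluster 12 had one of −0.03 (−0.39 to 0.33). Cluster 3 was lower, at 12.5 CPM and 21.9 CPM, with a log2 ratio of 0.77 whose interval reached 0. Thinned shares of cluster 7 cells with a Fgfr3 UMI were 10.1% (6.16 to 15.3) and 19.5% (14.3 to 25.6), beside 20.8% and 41.4% unthinned. Cluster 16 gave the background, with 1 of 49 and 1 of 45 thinned cells. Left without the 20 control and 39 induced cells of cluster 7 that held an Acta2 or Tagln UMI, a choice made after seeing the data, the Fgfr3 ratio was 1.40.

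Ligand and receptor could be followed in the same cells. In cluster 3, 7 of 169 control cells and 40 of 379 induced cells held UMIs of both Fgf18 and Fgfr3. In cluster 4 it was 7 of 277 and 24 of 232, and in cluster 14 it was 9 of 85 and 20 of 128. In dermal papilla-like cells, 37 of the 41 control cells with a Fgf7 UMI and 83 of the 85 induced ones also held a Fgfr1 UMI. Among all cells of that cluster, with or without a Fgf7 UMI, 123 of 141 control cells and 213 of 222 induced cells held a Fgfr1 UMI. These counts are unthinned and rise with the level of each gene and with depth. Numbers expected from each gene alone were not computed, so no link between ligand and receptor is read from them.

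**Figure D3:**
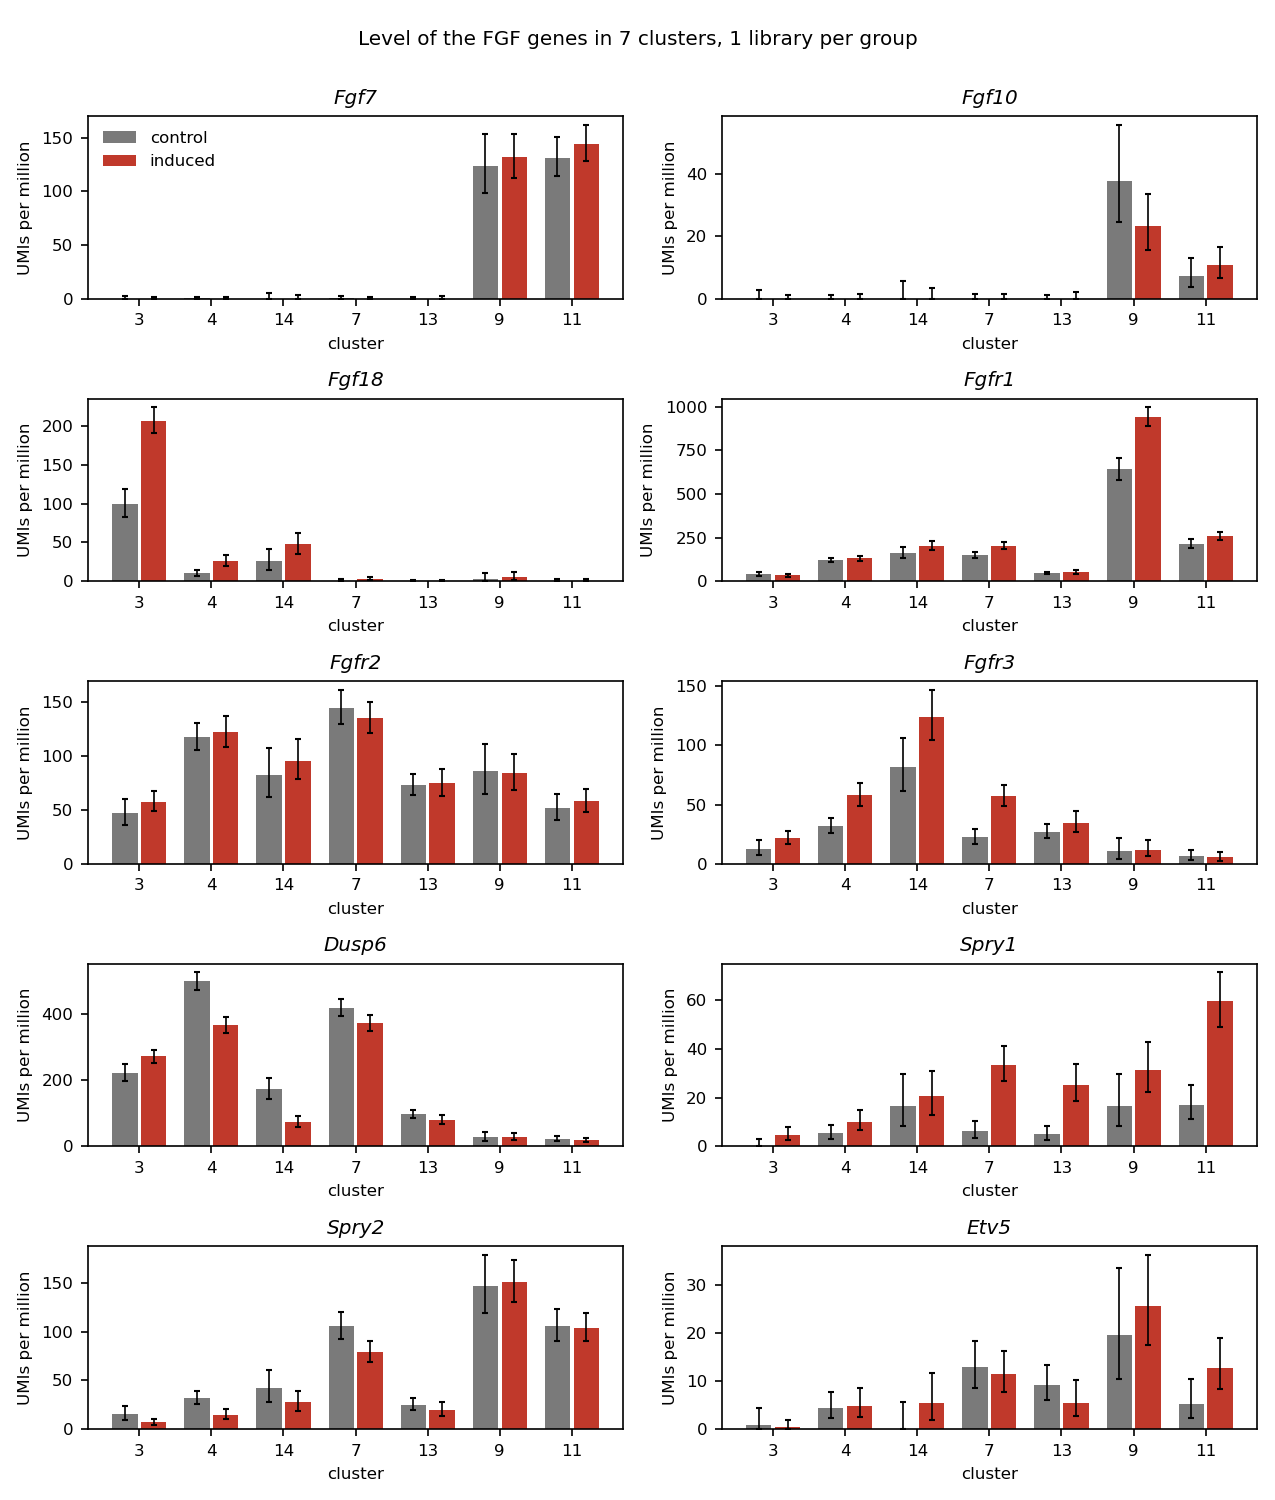
Level of each FGF gene (CPM, linear axis from 0) in clusters 3, 4, 14, 7, 13, 9 and 11 of the control library (grey) and the induced library (red). Error bars are exact 95% Poisson intervals, which cover counting error only. Fgf18 is higher in induced cells of clusters 3, 4 and 14, Spry1 in clusters 7, 13 and 11, and Dusp6 is lower in clusters 4 and 14.

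The feedback genes did not move together. Dusp6, the phosphatase that inactivates ERK, was highest in the control in cluster 4, with 1444 UMIs, and had 900 UMIs there in the induced library. That was 499 CPM (474 to 526) against 365 CPM (342 to 390), a log2 ratio of −0.45 (−0.57 to −0.33). The share of cells with a Dusp6 UMI was 75.5% (69.8 to 80.5) and 58.9% (52.2 to 65.4) after thinning and 88.1% and 70.7% before, and the median number per cell was 4 and 2 UMIs. The 5 highest cells held 7.69% and 14.1% of the UMIs. In the control, cluster 7 came second at 419 CPM (393 to 447), whereas in the induced library cluster 7, at 373 CPM (350 to 396), cluster 4 and cluster 8, at 363 CPM (338 to 390), overlapped.

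In cluster 14 the ratio for Dusp6 was the lowest among the 7 clusters plotted. It was past 1.5-fold lower, with 115 and 83 UMIs, 173 CPM (143 to 208) and 74.1 CPM (59.1 to 91.9), and a log2 ratio of −1.22 (−1.65 to −0.80). The 5 highest cells held 44.3% and 49.4% of these UMIs, and thinned shares were 31.5% (21.1 to 43.4) and 16.4% (10.3 to 24.2), beside 40.0% and 22.7% unthinned. Basal-like cluster 12, at −0.79 (−1.34 to −0.26), and sebaceous gland-like cluster 15, at −0.86 (−1.23 to −0.49), were also past 1.5-fold lower. So were antigen-presenting-like cluster 16, at −2.08 (−3.73 to −0.86) from 27 and 6 UMIs, and unnamed cluster 17, at −2.32 (−3.46 to −1.14) from 13 and 16 UMIs, with 5 control cells holding 85.2% and 100% of them. Past 1.5-fold lower in clusters 12, 14, 15, 16 and 17 were 8.19%, 9.11%, 13.2%, 15.0% and 18.9% of all genes. Of the 20 dissociation genes, 12 were past 1.5-fold lower in cluster 17, with a median of −0.74, 6 in cluster 15, 4 in cluster 16 and 1 each in clusters 12 and 14, and their part in the Dusp6 differences was not tested. Over 19 clusters, the Dusp6 ratio was below 0 in 15, with the interval below 0 in 9 and above 0 in 3. The 3 were cluster 1, at 0.35 (0.21 to 0.50), cluster 3, at 0.30 (0.10 to 0.50), and cluster 8, at 0.16 (0.01 to 0.33). Among cells under 5% mitochondrial UMIs, the Dusp6 ratio of cluster 3 was 1.02, from 91 UMIs.

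Spry1, a receptor tyrosine kinase inhibitor, was low in the control and higher in the induced library in most clusters. In cluster 7, 14 control UMIs and 90 induced UMIs gave 6.20 CPM (3.39 to 10.4) and 33.4 CPM (26.8 to 41.0), a log2 ratio of 2.39 (1.61 to 3.36), which was 1.35 when each cell was weighted equally. In fibroblast-like cells, 26 and 116 UMIs gave 17.1 CPM (11.2 to 25.0) and 59.5 CPM (49.2 to 71.4), a log2 ratio of 1.78 (1.18 to 2.47). In cycling-like cells, 15 and 46 UMIs gave 5.10 CPM (2.85 to 8.41) and 25.4 CPM (18.6 to 33.9), a log2 ratio of 2.29 (1.45 to 3.26). The libraries did not overlap in any of these 3 clusters. Clusters 0 and 2 were past 1.5-fold as well, at 1.18 (0.42 to 1.98) and 1.38 (0.67 to 2.13), and cluster 10 at 0.83 (0.19 to 1.4998). The ratio was above 0 in 13 of 14 clusters and past 1.5-fold in 9 of them, all higher. In those 14 clusters, 7.28% to 15.2% of all genes were past 1.5-fold higher.

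In cluster 3, Spry1 had 0 control UMIs and 14 induced UMIs, too few for a ratio. Among HF-SC-like cells the intervals included 0, at 0.86 (−0.09 to 1.88) in cluster 4 and 0.28 (−0.78 to 1.495) in cluster 14, and the same held for dermal papilla-like cells, at 0.87 (−0.08 to 2.03). The thinned shares of cluster 7 cells with a Spry1 UMI were 3.17% (1.17 to 6.78) and 14.1% (9.68 to 19.7), beside 6.60% and 23.8% unthinned. In fibroblast-like cells they were 13.2% (7.56 to 20.8) and 16.2% (10.8 to 23.0), which overlap, beside 14.6% and 28.6% unthinned.

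The dissociation genes were read beside Spry1. In cluster 7, 12 of the 20 were past 1.5-fold higher and none lower, beside 15.2% and 8.79% of all genes, with a median log2 ratio of 0.73. In cluster 13, 5 were higher, beside 9.57% of all genes, with a median of 0.37. In cluster 11 none was past 1.5-fold, beside 14.0% of all genes higher and 6.04% lower, with a median of −0.03. The part of the dissociation genes in the Spry1 differences was not tested. Without the cells holding Acta2 or Tagln UMIs the Spry1 ratio of cluster 7 was 2.53, and without the 13 control and 22 induced cells with mainly Schwann markers that of cluster 11 was 1.68, both chosen after seeing the data.

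Spry2, the sprouty best known in branching epithelia, had its highest level in T cell-like cluster 19, at 675 CPM (542 to 831) and 499 CPM (390 to 630) from 29 and 28 cells. Dermal papilla-like cells had 146 CPM (119 to 179) and 151 CPM (130 to 174), fibroblast-like cells 106 CPM (90.1 to 123) and 104 CPM (90.3 to 119), and cluster 7 had 106 CPM (92.8 to 120) and 79.4 CPM (69.1 to 90.7). In both dermal clusters the log2 ratio was close to 0, at 0.04 (−0.32 to 0.41) and −0.02 (−0.33 to 0.28). In epithelium Spry2 was lower in several clusters. In cluster 4, 91 control UMIs and 36 induced UMIs gave 31.5 CPM (25.3 to 38.6) and 14.6 CPM (10.2 to 20.2), a log2 ratio of −1.09 (−1.70 to −0.53). Among cells under 5% mitochondrial UMIs this ratio was −0.45, from 62 UMIs, and no longer past 1.5-fold.

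The Spry2 ratio was also past 1.5-fold lower, with an interval below 0, in cluster 12, at −1.40 (−2.46 to −0.51), in cluster 1, at −1.13 (−2.05 to −0.34), and in cluster 3, at −1.19 (−2.16 to −0.22). In cluster 3, 5 cells held 75.0% of the control UMIs, so this value rests on few cells. Melanocyte-like cluster 20 was lower as well, at −2.04 (−3.41 to −0.87) from 19 and 9 UMIs in 24 and 29 cells. Cluster 7 was lower by less, at −0.41 (−0.69 to −0.14), and this value turned to 0.46 among cells under 5% mitochondrial UMIs. Of 18 clusters, 14 had a Spry2 ratio below 0. Cluster 7 thus held higher Spry1 in the induced library, while its lower Spry2 did not hold among cells under 5% mitochondrial UMIs. Cluster 4 held lower Spry2 with a Spry1 ratio above 0 that did not exceed counting error.

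Etv5 was sparse, with 248 control UMIs and 214 induced UMIs over all kept cells. Its highest level was in dermal papilla-like cells, at 19.6 CPM (10.5 to 33.6) and 25.7 CPM (17.6 to 36.3), but the intervals overlapped those of cluster 12, at 16.2 CPM and 10.2 CPM, and of cluster 7, at 12.8 CPM and 11.5 CPM. In fibroblast-like cells, 8 and 25 UMIs gave 5.26 CPM (2.27 to 10.4) and 12.8 CPM (8.30 to 18.9), a log2 ratio of 1.23 (0.09 to 2.65). The only other interval that excluded 0 was in basal-like cluster 0, at 0.85 (0.09 to 1.62), from 29 and 34 UMIs. Of 9 clusters with an Etv5 ratio, 4 were above and 5 below 0. Cluster 14 had 0 control UMIs and 6 induced UMIs and no ratio.

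**Figure D4:**
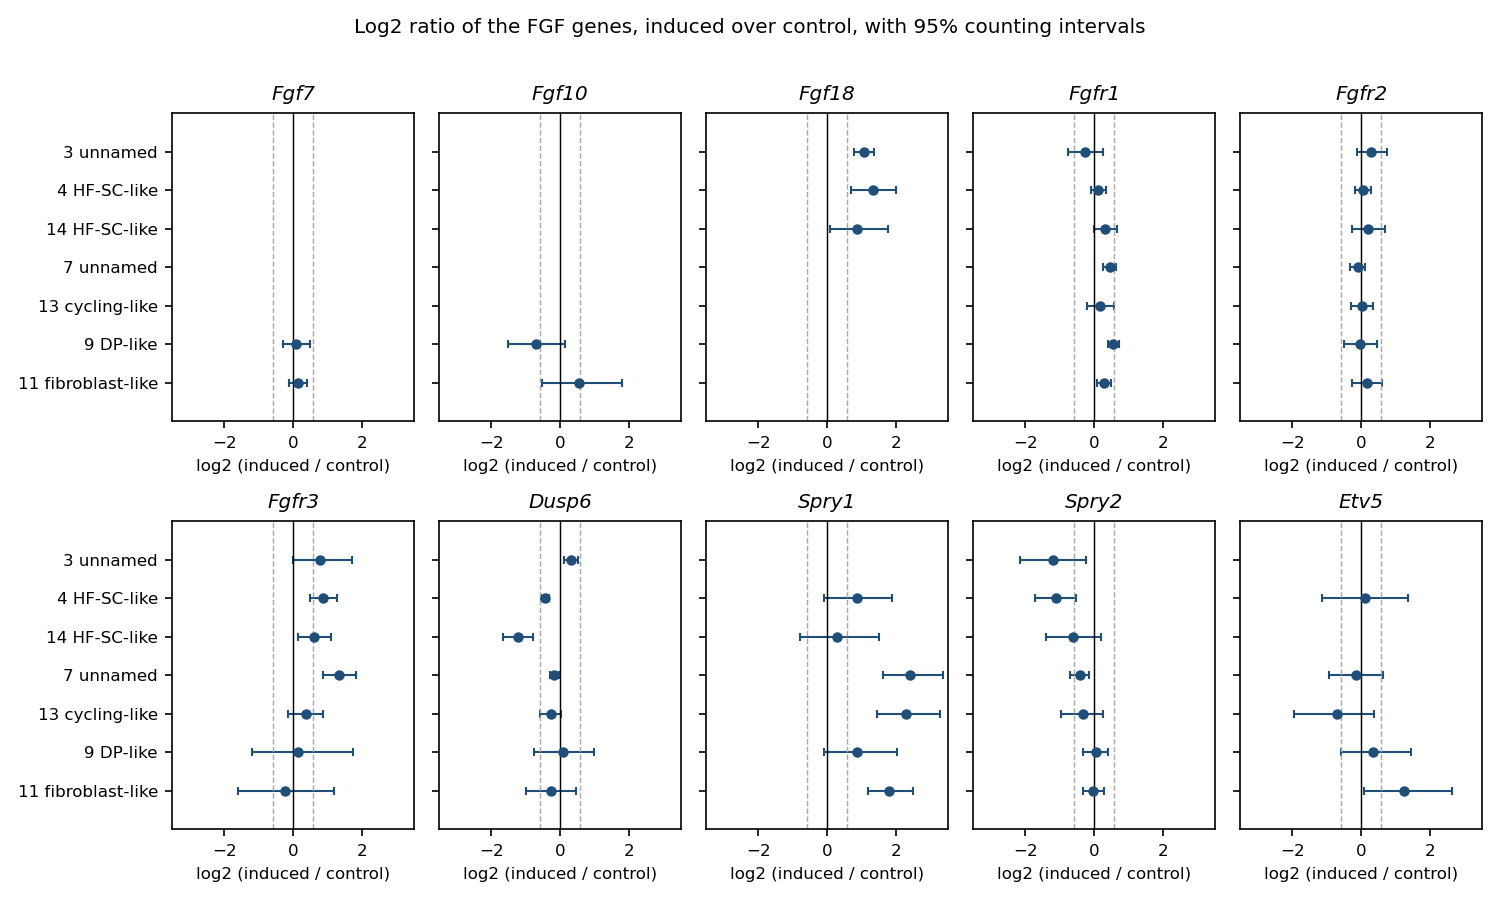
Log2 ratio of induced over control (x axis) for each FGF gene in 7 clusters (y axis), with exact 95% counting intervals; dashed lines mark 1.5-fold, and genes under 20 UMIs over both libraries have no point. Fgf18 and Fgfr3 lie to the right in clusters 3, 4 and 14, Spry1 lies farthest right in clusters 7 and 13, and Dusp6 lies farthest left in cluster 14.

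Counted per cluster, the members past 1.5-fold are set here beside the share of all genes with at least 20 UMIs. In cluster 3, 2 of 6 members with a ratio were higher and 1 was lower, beside 11.0% and 5.89% of all genes. In cluster 4, 3 of 8 were higher and 1 lower, beside 10.5% and 7.58%. In cluster 14, 2 of 7 were higher and 2 lower, beside 12.8% and 9.11%. The members higher in these 3 clusters were Fgf18 and Fgfr3, with Spry1 in cluster 4, and the members lower were Dusp6 in cluster 14 and Spry2 in all 3. The intervals of Fgfr3 in cluster 3, Spry1 in cluster 4 and Spry2 in cluster 14, at −0.61 (−1.39 to 0.18), included 0.

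In cluster 7, 2 of 7 members were higher, Fgfr3 and Spry1, and 0 lower, beside 15.2% and 8.79% of all genes. In cycling-like cluster 13, 1 of 7 was higher and 1 lower, Spry1 and Etv5, beside 9.57% and 8.97%. The Etv5 ratio there, −0.69 (−1.94 to 0.36) from 27 and 10 UMIs, did not exceed counting error and was 0.05 as a mean over cells. In dermal papilla-like cluster 9, 1 of 9 was higher and 1 lower, Spry1 and Fgf10, beside 10.2% and 13.6%, and both intervals included 0. In fibroblast-like cluster 11, 2 of 9 were higher, Spry1 and Etv5, and 0 lower, beside 14.0% and 6.04%. With 6 to 9 members a cluster, 1 gene moves such a share a long way, and nothing is read from the counts beyond the single values above.

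The wider pathway was read from lists. Of 22 FGF ligand genes, between 1 and 4 a cluster reached 20 UMIs in the 7 clusters. Fgf1, a broadly acting ligand without a secretion signal, was lower in cluster 4, with 69 control UMIs and 22 induced UMIs. Its log2 ratio was −1.39 (−2.18 to −0.71) there and −1.19 (−2.19 to −0.20) in cluster 3. In cluster 7 Fgf1 had 30 and 10 UMIs and a log2 ratio of −1.79 (−3.04 to −0.77), and in cluster 14 the ratio of −0.93 (−2.04 to 0.16) included 0. In dermal cells, Fgf2 was lower in cluster 11, at −1.08 (−2.02 to −0.20), and Fgf12 lower in cluster 9, at −1.47 (−2.99 to −0.09), from 12 and 8 UMIs.

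Of 15 receptors and co-receptors, 8 to 11 a cluster were tested, with list medians between −0.05 and 0.21. The heparan sulfate proteoglycan Sdc3 was lower in clusters 3, 4, 7 and 11, at −0.93, −1.39, −0.97 and −0.63, each with an interval below 0. In fibroblast-like cells, the glypican Gpc3 was higher, at 0.79 (0.49 to 1.10), and Fgfbp1, which releases FGFs from the matrix, was lower, at −1.61 (−2.29 to −0.99), and Fgfbp1 was lower in cluster 9 too, at −1.78 (−3.26 to −0.49) from 15 and 8 UMIs. The basal keratinocyte marker Krt14 was lower in the same clusters, from 841 CPM to 424 CPM in cluster 11 and from 1028 CPM to 419 CPM in cluster 9, and Krt5 went from 225 CPM to 194 CPM and from 412 CPM to 267 CPM. The part of keratinocyte RNA in the Fgfbp1 difference was not tested. In cycling-like cells Gpc3 was instead lower, at −1.004 (−2.17 to −0.05). Gpc1 was past 1.5-fold higher in clusters 3 and 7, at 1.13 (−0.16 to 2.97) and 0.62 (−0.07 to 1.37), and the decoy receptor Fgfrl1 in cluster 9, at 0.67 (−0.75 to 2.57), all with intervals that included 0.

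Of 16 feedback and target genes, 12 were tested in fibroblast-like cells, with a median of 0.33 beside 0.08 for all genes. Past 1.5-fold higher were 4 of them and lower none, beside 14.0% and 6.04% of all genes. They were Spry1, Etv5, the sprouty Spry4, at 0.88 (0.07 to 1.78), and the ETS factor Etv1, at 1.91 (1.01 to 3.05) from 11 and 55 UMIs. In cluster 14 the 9 tested had a median of −0.50 beside 0.06. Past 1.5-fold lower were 4 of them and higher none, beside 9.11% and 12.8% of all genes. They were Dusp6, Spry2, the phosphatase Dusp5, at −1.15 (−2.59 to 0.20), and the FGF receptor antagonist Il17rd, at −1.21 (−2.37 to −0.11). Among these, Spry2 and Dusp5 did not exceed counting error. In cluster 3, 3 of 6 were lower, beside 5.89% of all genes. Among them were the ERK pathway inhibitor Spred1, at −0.85 (−1.70 to 0.03), and the adhesion protein Flrt2, at −0.64 (−1.13 to −0.13). The remaining 4 clusters had medians from −0.24 to 0.07.

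In cluster 7, Spry4 went with Spry1, at 4 and 32 UMIs and a log2 ratio of 2.60 (1.25 to 4.71), while Flrt2 was lower, at −0.74 (−1.22 to −0.28). In dermal papilla-like cells, Dusp5 was higher, at 1.498 (0.52 to 2.77) from 9 and 50 UMIs, and Il17rd and Flrt2 were lower, at −1.18 (−1.95 to −0.43) and −1.26 (−2.39 to −0.19). In cycling-like cells, Flrt3 was lower, at −1.15 (−1.48 to −0.84), as was Flrt2, at −0.82 (−1.48 to −0.23). The feedback genes past 1.5-fold thus differed between clusters in which genes they were and in direction. Whether these differences between clusters exceed the spread between mice was not tested.

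**Figure D5:**
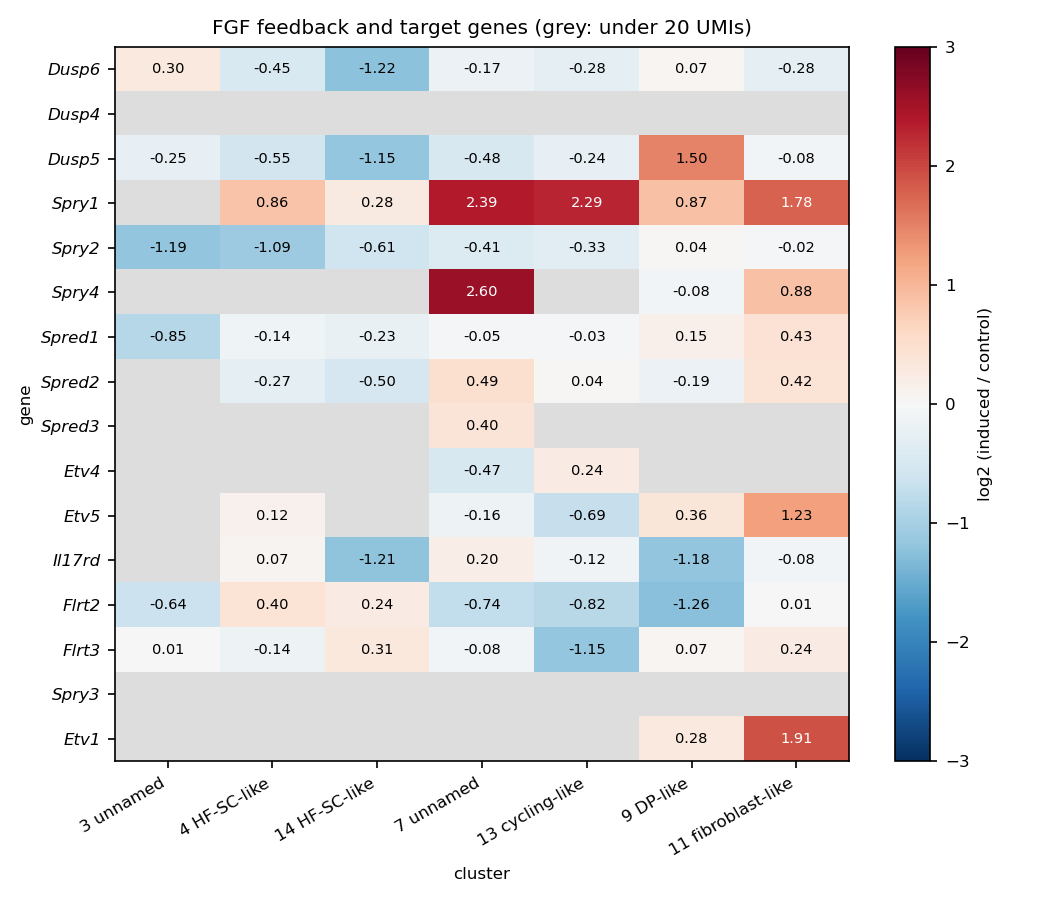
Log2 ratio of induced over control (colour and printed value) for 16 FGF feedback and target genes (rows) in 7 clusters (columns); grey cells had under 20 UMIs over both libraries. Spry1 is above 0 in each of the 6 clusters with a value and Spry2 below 0 in 6 of 7, and cluster 14 has 4 genes past 1.5-fold lower, beside 9.11% of all genes there.

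Of 20 genes of the RAS-ERK relay, 17 to 19 a cluster were tested, with list medians between −0.17 and 0.10. The exchange factor Sos1 was higher in fibroblast-like cells, at 1.27 (0.34 to 2.38), with the adaptor Shc1, at 0.65 (0.14 to 1.19), and phospholipase Plcg1 was higher in cluster 14, at 1.27 (0.05 to 2.93). The kinase Braf was lower in cycling-like cells, at −0.74 (−1.32 to −0.21). The relay genes Frs2, Sos1 and Sos2 in cluster 9, Plcg1 in clusters 7, 11 and 13, and Sos1 and Sos2 in cluster 14 were past 1.5-fold with intervals that included 0. Over all 4 FGF lists together, the median lay between −0.17 and 0.13.

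Among the members, likeness across the 22 clusters was read as Pearson's r on log2 of CPM plus 1, averaged over both libraries. Fgf7 and Fgf10 had r = 0.97, Fgfr2 and Fgfr3 had r = 0.73, Fgf18 and Dusp6 had r = 0.41, and Spry1 and Spry2 had r = 0.31. Against the rest of the genes, those most like Fgf7 were En1, Cilp and Tbx15 (each r = 0.99), and those most like Fgf10 were Lamc3, Gm26523 and Pde3a (r = 0.996, 0.995 and 0.995). Fgf18 was nearest to Pdlim3 (r = 0.90), Kcnk2 (r = 0.90) and Grip1 (r = 0.88). These correlations are descriptions over clusters that share the same 2 libraries and differ in depth, and for Fgf7 and Fgf10 they rest on clusters 9 and 11.

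For the receptors, Fgfr1 was nearest to Arhgef17 (r = 0.87), Grb14 (r = 0.86) and Casc4 (r = 0.85), Fgfr2 to Nfix (r = 0.93), Wdr34 (r = 0.91) and Smo (r = 0.91), and Fgfr3 to Mtmr11 (r = 0.91), Fam221a (r = 0.87) and Vangl2 (r = 0.86). Dusp6 was nearest to Cobll1 (r = 0.87), Myh14 (r = 0.86) and another ERK phosphatase, Dusp7 (r = 0.86). Spry1 was nearest to Ahdc1 (r = 0.85), Lysmd2 (r = 0.83) and Smg6 (r = 0.77), Spry2 to Chka (r = 0.86), Fermt2 (r = 0.85) and Cnot10 (r = 0.85), and Etv5 to Clip2 (r = 0.81), Mex3a (r = 0.78) and Ptprz1 (r = 0.78). By the first-ranked gene alone, Etv5 had the lowest r among the members (0.81), while the lowest r of any gene named was that of Smg6 with Spry1 (0.77).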

How the data were processed

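A pair of 10x Genomics libraries of sorted mouse back skin cells, 1 control and 1 induced, were analysed. Per the file headers, the authors counted UMIs with Cell Ranger 3.0.1, and the deposited values are raw whole-number counts per gene and barcode. The submitters' processing notes name build mm10.

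Cells with more than 200 and fewer than 5000 genes and under 10% mitochondrial UMIs were kept, as the study's methods state. Doublets were not removed: Scrublet in scanpy 1.11.5 marked 4 and 5 barcodes, which was too few to use, so an alternative left out the 143 and 124 highest scores (from an expected rate that grows with the number of cells). Libraries were integrated in Seurat 5.3.0 (R 4.3.3; 2000 variable genes without the FGF lists, 30 dimensions, resolution 0.8). A cluster took the name of the class with the most raised markers (at least 3 and at least 50% of the class, each with 20 UMIs and 2-fold), provided no other class had more markers among its top 10 genes; this rule, and the cut-offs of the alternative marker gate on single cells, were set after seeing the data. Clusters 3, 4, 7, 9, 11, 13 and 14 were described in full.

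UMIs were summed per cluster and library and scaled to 1000000 UMIs of the cluster (CPM) with exact Poisson intervals. Log2 ratios used a pseudocount of 0.5 UMIs and exact conditional intervals, for genes with 20 UMIs over both libraries, and called means past 1.5-fold. Shares of cells used exact Clopper-Pearson intervals after thinning to 5000 UMIs, and for a share of 0 the upper limit set by 3 counts is printed. In droplet data free RNA adds UMIs to cells that do not express a gene. Named genes were the 10 members, genes of the FGF lists past 1.5-fold in a described cluster (1 is not reported here), and the 3 genes with the highest r to each member among those with 200 UMIs. The members, lists and described clusters were chosen with earlier results of these data known. In counts simulated from cluster 4 with Poisson error alone, 93.5% of genes changed by 1 log2 unit were past 1.5-fold. Of unchanged genes, 8.78% were past it in either direction, beside 10.5% higher and 7.58% lower among real genes of that cluster. The simulation had no spread between cells or mice, so it cannot show how the intervals hold in these data. Gene positions and UTRs came from NCBIM37 annotation, and miR-205 from RefSeq on GRCm38.p6.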

Additional observations from a re-analysis of the deposited data

Results flagged for a closer look

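Dusp6 differed in direction between clusters under the same contrast. Its log2 ratio of induced over control was 0.35 in unnamed cluster 1 and −1.22 in HF-SC-like cluster 14, a difference of 1.57, and both counting intervals excluded 0. Among the 5 clusters whose Dusp6 ratio was followed through the alternatives, 2 had an interval above 0 and 3 below. Cluster 14 gave no Dusp6 value with cells under 5% mitochondrial UMIs or at resolution 0.4, so its ratio was not followed there. Its median mitochondrial share was 6.78% in control and 6.47% in induced cells, and 12 of 85 and 19 of 128 cells were under 5%. The difference between clusters was not tested, since there was 1 library per group.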

How the results depend on the processing

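Of 508 recomputed values, 455 stayed within the main interval (counts within 1.5 times), 52 moved and 1 reversed, and 404 of 416 log2 ratios kept their sign. Of these ratios, 26 with at least 100 UMIs and 39 with no minimum equalled the main values by construction. They could not have changed and show nothing about stability. Under 5% mitochondrial UMIs, the Spry2 ratio of cluster 7 reversed to 0.46, and that of cluster 4 was −0.45 (no longer past 1.5-fold). The ratio was then 2.22 for Fgf18 in cluster 3, 2.50 for Fgf18 in cluster 4, 2.00 for Fgfr3 in cluster 7 and 1.02 for Dusp6 in cluster 3. At this limit, 7 of 90 member values were past 1.5-fold lower and 21 higher. As a mean over cells, Spry1 in cluster 7 was 1.35. Dusp6 in cluster 4 was −0.67 at resolution 0.4 and −0.59 with FGF genes kept among the variable genes, and Fgf7 in cluster 11 was 0.68 at resolution 1.2. The population matched to cluster 4 at resolution 0.4 held 427 Fgfr3 UMIs, beside 234 in main cluster 4 and 193 in main cluster 14. The population matched to cluster 11 at resolution 1.2 held 207 Fgf7 UMIs, beside 481 in the main cluster. With the marker gate, cluster 9 was stood for by only its 10 control and 16 induced cells gated as dermal papilla. Their ratios were −0.67 for Fgf7 and 0.87 for Fgfr1. Cluster 7 was stood for by cells gated as hair germ, of which 46 control and 44 induced cells lay in it. Their Fgfr3 ratio was 2.34. Under the gate, 10 member values were lower, and 49 FGF list values were higher and 57 lower. Summed over clusters, the main analysis had 27 of 116 member values past 1.5-fold higher and 17 lower, and 74 and 92 of 730 FGF list values. For all genes, the shares per cluster were 7.28% to 25.2% higher and 4.67% to 19.6% lower. Their upper ends came from small clusters, 17 (16 control cells) and 18 (28 control cells). In the 7 described clusters they were 9.57% to 15.2% and 5.89% to 13.6%. A share of all genes summed over clusters was not computed. With at least 100 UMIs, the counts of members higher and lower, then of FGF list values higher and lower, were 9, 4, 15 and 26. With no minimum they were 52, 42, 201 and 240, as fewer or more genes entered. For the 5% limit, the gate and these 2 minimums, the share of all genes was not computed, so their counts were not compared with it. The cause of the other shifts was not tested. Of 22 clusters, the gate matched 8, resolution 0.4 and the 5% limit 17, and unmatched clusters gave no value. No paired analysis was possible because the 2 libraries form a single pair. The labels carry no replicate numbers.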
